A study of Mus musculus with 22 samples.

Results

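The immediate-early activity genes comprise 10 genes chosen by name, Fos, Fosb, Arc, Egr1, Egr2, Junb, Npas4, Nr4a1, Dusp1 and Ier2, out of 24421 genes counted in the right brain hemisphere of 22 mice. Each of the 10 had a row in both deposited count tables and passed the filter on low counts in males and in females. All mice were C57BL/6JOlaHsd (written C57B6/J OlaHsd in the sample labels), kept in groups of 4 and 10 to 12 weeks old when ranked. Rank within a cage was set by the tube test, in which cage mates push each other out of a narrow tube, and the groups were 7 dominant males, 7 submissive males, 4 dominant females and 4 submissive females. Each of 7 male and 4 female cages, numbered here by the replicate number, gave 1 dominant and 1 submissive mouse. Both were anaesthetised with isoflurane and killed together by decapitation, on a morning some days after ranking. Female mice of intermediate rank were mixed into new groups and ranked again, but which libraries came from such groups was not stated, and female cages 3 and 4 carry another style of name (Gr1 and Gr2) than cages 1 and 2.

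Immediate-early genes are transcribed within minutes of a strong stimulus, without the need for new protein, and their short-lived RNAs serve as a record of recent neuronal activity. In neurons, calcium entry and the MAP kinase cascade act on factors such as CREB and SRF that already sit at these promoters. Fos, Fosb and Junb encode subunits of the AP-1 transcription factor, Egr1 and Egr2 encode zinc finger factors, Npas4 a factor largely restricted to neurons and Nr4a1 an orphan nuclear receptor, while Arc acts at synapses in the removal of AMPA receptors, Dusp1 is a phosphatase that switches off MAP kinases and Ier2 encodes a short-lived nuclear protein.

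The stretches before the transcription start were searched for 4 motifs on both strands. RefSeq (GRCm38.p6) gave the 250 bases before the start for 7 of the 10 genes, and the table held none for Arc, Egr1 and Ier2. TGACG or its complement CGTCA, the core of the CRE motif bound by CREB, was found in 7 of 7 against 17.8% of 32851 promoters of the same length. The full palindrome TGACGTCA, which contains both cores, was found in Dusp1 only, against 1.55% of promoters. The CArG box, bound by SRF, was found in Egr2 (1.47% of promoters), and GCGGGGGCG or CGCCCCCGC, bound by EGR factors, in Fosb and Nr4a1 (2.57% of promoters). A match gives letters in this window and not an occupied site. The lack of a match says nothing of sites outside the window or of the genes without a sequence. The part of these motifs in the differences below was not tested. The sequences of 3 genes that differed between cages in both sexes (Fos, Nr4a1 and Dusp1) and of 1 that did so in neither (Fosb) are shown 5′ to 3′ on the gene's strand, with these cores and the palindrome in capitals.
Fos, chr12:85473640-85473889, plus strand: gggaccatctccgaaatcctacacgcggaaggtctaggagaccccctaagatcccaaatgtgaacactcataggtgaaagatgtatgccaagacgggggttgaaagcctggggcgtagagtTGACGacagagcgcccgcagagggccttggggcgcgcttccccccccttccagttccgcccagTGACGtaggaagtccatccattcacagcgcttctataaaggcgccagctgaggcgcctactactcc
Nr4a1, chr15:101266596-101266845, plus strand: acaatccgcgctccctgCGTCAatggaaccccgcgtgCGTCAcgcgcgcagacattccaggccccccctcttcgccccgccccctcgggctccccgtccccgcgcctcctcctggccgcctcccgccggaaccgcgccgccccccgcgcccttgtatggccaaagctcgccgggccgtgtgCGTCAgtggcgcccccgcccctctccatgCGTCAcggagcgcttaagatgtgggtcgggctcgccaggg
Dusp1, chr17:26508473-26508722, minus strand: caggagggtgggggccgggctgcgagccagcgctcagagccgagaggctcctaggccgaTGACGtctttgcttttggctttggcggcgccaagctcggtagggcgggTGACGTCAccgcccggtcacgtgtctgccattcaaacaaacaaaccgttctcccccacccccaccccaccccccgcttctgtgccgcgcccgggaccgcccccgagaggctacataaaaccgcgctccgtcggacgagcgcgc
Fosb, chr7:19310046-19310295, minus strand: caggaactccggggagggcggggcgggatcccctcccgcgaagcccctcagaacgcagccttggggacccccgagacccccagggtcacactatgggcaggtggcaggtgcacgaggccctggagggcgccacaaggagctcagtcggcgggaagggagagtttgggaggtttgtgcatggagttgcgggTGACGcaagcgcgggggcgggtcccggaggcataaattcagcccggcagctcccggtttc
The core lay 129 and 66 bases before the start in Fos and 60 bases before it in Fosb. Nr4a1 held 4 cores and Dusp1 held 3, counting both cores of its palindrome.

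Arc and Nr4a1 lie on chromosome 15, Junb and Ier2 on chromosome 8, Fos on 12, Fosb on 7, Egr1 on 18, Egr2 on 10, Npas4 on 19 and Dusp1 on 17 (build mm10). The counted exons of Fos span 85473901 to 85477270, those of Arc 74669081 to 74672570, those of Nr4a1 101266846 to 101274794 and those of Dusp1 26505591 to 26508472.

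The libraries held 12403943 to 16488762 counted reads, and values are given as CPM, reads counted for a gene scaled to the size of the library. All 12 brain tissue markers were found in every library, among them Snap25 with 1339 to 2020 CPM and Mbp with 1981 to 2875 CPM. In one library, dominant male 1, the 10 cerebellar neuron markers summed to 210.0 CPM against 640 to 1038 CPM in the other males. Since the hemisphere mixes all regions, fewer cells of a type and less RNA per cell cannot be told apart, and values average over active and silent regions. The mice of a group came from different cages, so p-values for rank refer to the spread between animals. Tests with cage in the model use the spread between mates of a cage. Tests of females against males took the mates of a cage as independent, except where mates were summed.

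Per kilobase of exon, Arc had the highest level (26.9 ± 10.4 CPM per kb, SD, n = 22), followed by Egr1 with 15.5 ± 3.84 and Junb with 15.3 ± 3.13 CPM per kb. Nr4a1 (8.36 ± 2.94), Dusp1 (7.26 ± 2.29) and Fos (6.87 ± 2.77 CPM per kb) formed a middle group. Ier2 (2.58 ± 0.687), Npas4 (1.39 ± 0.648), Egr2 (1.26 ± 0.517) and Fosb (0.643 ± 0.214 CPM per kb) were lowest. Arc lay above Egr1 in 22 of 22 mice and Junb above Nr4a1 in 22 of 22, whereas Egr1 exceeded Junb in 11 and Npas4 exceeded Egr2 in 10 of the 22. No gene's range was clear of the range of the next gene in this order. Between mice, Egr2 varied 6.92-fold from lowest to highest and Junb 2.01-fold. The lowest count in any mouse was 14 reads for Egr2, and Arc had 660 to 2451 reads. No exon base of the 10 genes was shared with another annotated gene.

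**Figure D1:**
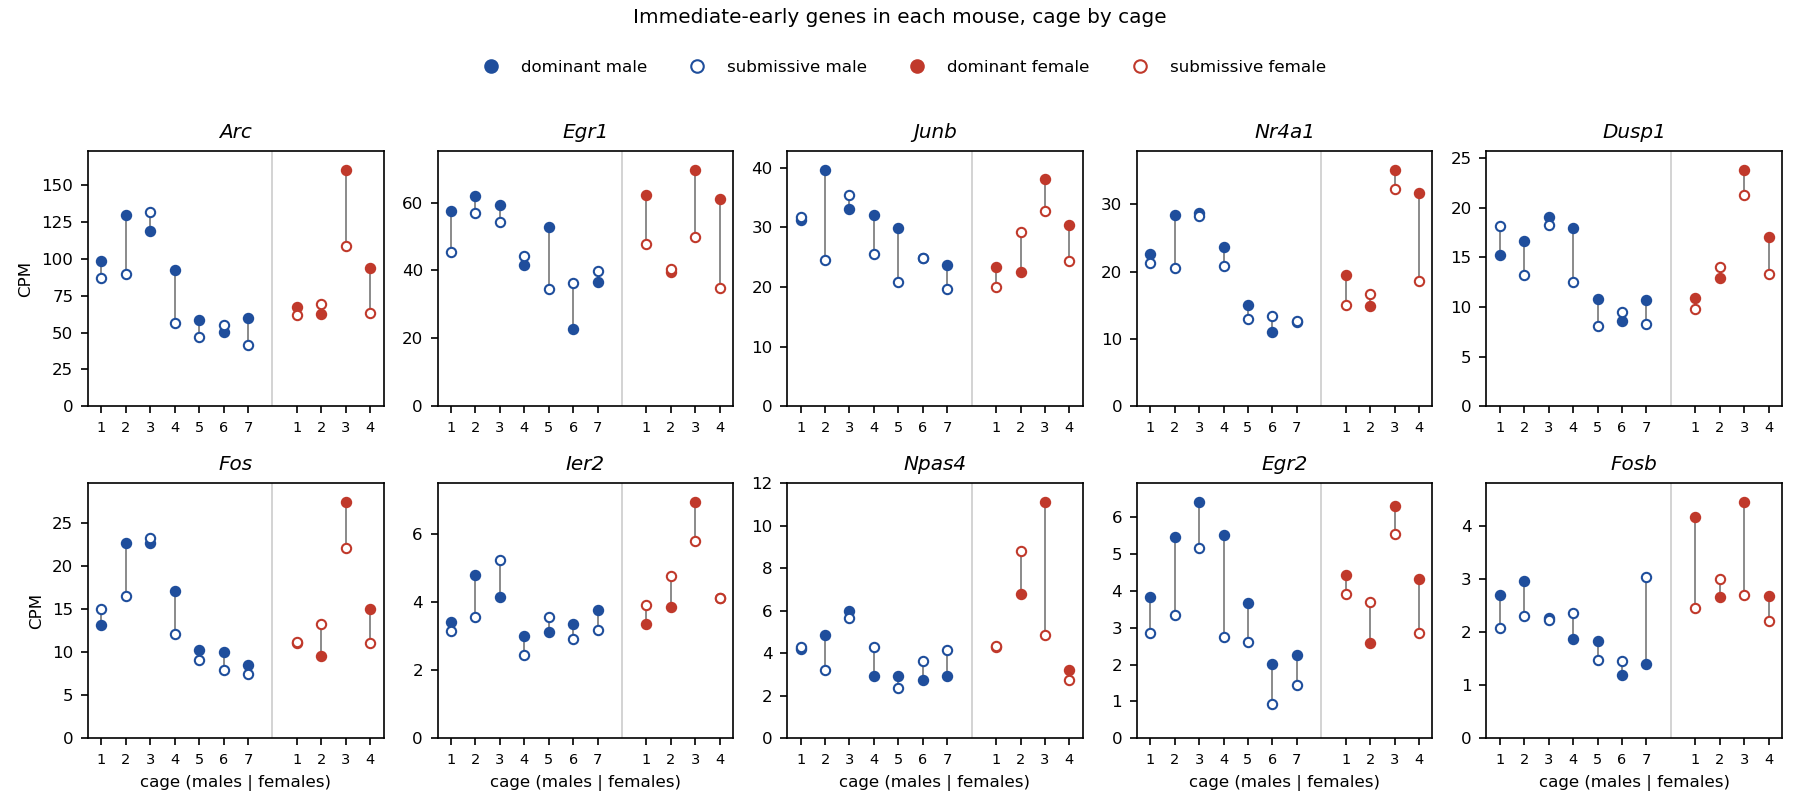
CPM of each gene (vertical axis, from 0) in each mouse by cage (horizontal axis, 7 male cages left of the line and 4 female cages right of it), with filled points for dominant and open points for submissive mice and a line joining cage mates. For Fos, mates lie closer together than cages, with values of 7.41 to 10.3 CPM in male cages 5 to 7 and of 22.1 and 27.4 CPM in female cage 3, whereas mates lie apart for Fosb in male cage 7 (1.39 and 3.04 CPM) and for Npas4 in female cage 3 (4.87 and 11.1 CPM).

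The first question was whether rank was accompanied by a difference in these genes in males. None of the 10 genes passed an adjusted p of 0.05 (edgeR's quasi-likelihood test), as was the case for 0 of 14737 genes (0%). At an unadjusted p under 0.05 stood 0 of the 10, against 1.32% of all genes (194 genes by edgeR, 119 by DESeq2). With cage as a block, which compares mates, 4 of the 10 stood there (Egr2, Arc, Junb and Fos) against 2.29% of all genes, and 0 passed the adjusted threshold. The estimate was positive, higher in dominant males, for 8 of 10 genes with a median log2 fold change of 0.15, against -0.0015 over all genes. Egr2 had the largest estimate. In dominant males it lay between 2.03 and 6.41 CPM with a median of 3.84, and in submissive males between 0.926 and 5.15 CPM with a median of 2.75. These ranges overlapped widely, yet the dominant mouse was the higher one in 7 of 7 cages, by 0.30 to 1.02 on the log2 scale. The log2 fold change was 0.61 (SE 0.30, adjusted p = 1.00 by edgeR), the 234th smallest p-value of 14737 genes. With cage as a block it was 0.62 (SE 0.12), again with an adjusted p of 1.00 in edgeR. Arc was estimated at 0.26 (SE 0.25) and Junb at 0.23 (SE 0.13), and the smallest values were those of Fosb (-0.08, SE 0.21) and Npas4 (-0.06, SE 0.20). The dominant mouse was higher for Arc and for Junb in 5 of 7 cages and for Npas4 in 3 of 7. Among the marker lists, cerebellar neuron markers were estimated lower in dominant males for 10 of 10 genes (median log2 fold change -0.21) and thalamic and hindbrain markers for 6 of 6 (median -0.08), while choroid plexus markers were estimated higher for 8 of 8 (median 0.09), with 0 of these genes called. An unadjusted p under 0.05 was reached by 2 of the 8 choroid plexus markers in edgeR, against 1.32% of all genes, and by 0 of the other 2 lists. Summed cerebellar markers were at 210.0 to 1038 CPM (median 898) in dominant and 641 to 986 CPM (median 922) in submissive males, and choroid plexus markers at 603 to 1084 CPM (median 825) and 473 to 869 CPM (median 658). Without dominant male 1, the library low in cerebellar markers, the median of the 10 immediate-early genes was 0.13, and the part of these markers in the estimates was not tested. Leaving out other single mice moved this median further. It was 0.042 without dominant male 2, 0.059 without dominant male 3, 0.092 without submissive male 5, 0.078 without submissive male 6 and 0.079 without submissive male 7. It was 0.25 without dominant male 6, 0.22 without dominant male 7 and 0.27 without submissive male 3, and 8 to 10 of the 10 estimates were positive whichever mouse was left out.

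In females, 0 of the 10 genes were called for rank, against 0.0942% of genes (14 of 14865, 11 of them higher in dominant mice). Estimates were positive for 9 of 10 genes, with a median log2 fold change of 0.21 and the exception of Ier2 (-0.03, SE 0.19). Egr1 stood out by its standard error. It measured 62.3, 39.4, 69.7 and 61.1 CPM in dominant females of cages 1 to 4 and 47.7, 40.6, 50.0 and 34.8 CPM in their submissive mates. Without dominant female 2 the gene was called (adjusted p = 0.00649 by edgeR). Dominant females were higher in 3 of 4 cages, and the groups overlapped through cage 2. The log2 fold change of Egr1 was 0.42 (SE 0.12, adjusted p = 0.193 by edgeR). With cage as a block its adjusted p was 0.0367 (log2 fold change 0.41, SE 0.08), in a fit that called 36 genes or 0.242%, and it was 0.0573 when a trend with exon length was removed as well. Egr1 and Fosb had an unadjusted p under 0.05 (Fosb log2 fold change 0.42, SE 0.18, adjusted p = 0.426 by edgeR), which is 2 of 10 genes against 10.5% of all genes. With the block, Arc and Nr4a1 joined them, making 4 of 10 against 10.3%. Arc measured 67.5, 62.8, 160.5 and 94.1 CPM in dominant females and 62.0, 69.5, 109.0 and 63.6 CPM in submissive ones. Its estimate was 0.33 (SE 0.21), with higher values in the dominant mouse in cages 1, 3 and 4.

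The female estimates varied with cage and with single mice. In cages 3 and 4 all 10 genes were higher in the dominant female, in cage 1 there were 7 and in cage 2 there were 0. Without dominant female 3, which had the highest value of each of the 10 genes among females, the estimate was positive for 3 of 10 genes with a median of -0.08. This library also had the lowest summed thalamic and hindbrain markers of the females (256.7 CPM against 286 to 319 CPM). Hoxb5 and Hoxa5 of that list were at 0 in it alone, and the part of this in the estimates was not tested. The median of the 10 estimates was 0.39 without submissive female 3, 0.085 without submissive female 4 and 0.14 without submissive female 1. Without dominant female 3, Egr1 had a log2 fold change of 0.32 (SE 0.12) and Arc one of -0.03 (SE 0.15). Within cages 3 and 4 alone, 1 of the 10 genes was called, Egr1 (log2 fold change 0.62, SE 0.11, adjusted p = 0.0160 by edgeR), against 0.804% of genes, and within cages 1 and 2 the count was 0 against 0.0335% of genes. Several marker lists were also estimated mostly higher in dominant females, with 0 genes called: striatal markers for 7 of 8 genes (median log2 fold change 0.07), endothelial markers for 7 of 8 (0.05), microglial markers for 6 of 8 (0.03) and brain tissue markers for 10 of 12 (0.03). Of the forebrain excitatory neuron markers, 9 of 10 were estimated higher with a median log2 fold change of 0.12, 0 were called and 6 had an unadjusted p under 0.05 in edgeR. Their summed level was 1363 to 1605 CPM in dominant and 1306 to 1388 CPM in submissive females, with no marker at 0. Choroid plexus markers were estimated lower in dominant females for 8 of 8 genes (median -0.19), 4 of them with an unadjusted p under 0.05 in edgeR, and summed to 715 to 872 CPM in dominant and 682 to 1032 CPM in submissive females. Thalamic and hindbrain markers were estimated higher for 3 of 6 genes (median -0.0087), and 1 of these 6, Tph2, a marker of hindbrain serotonin neurons, was called lower in dominant females (log2 fold change -1.77, SE 0.32, adjusted p = 0.0418 by edgeR). The 1 blood marker tested had a log2 fold change of 0.65 with an unadjusted p under 0.05 in edgeR, and the summed blood markers were at 3.86 to 5.99 CPM in dominant and 2.56 to 3.78 CPM in submissive females. The part of these markers in the estimates was not tested.

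Averaged over both sexes, the estimate was positive for 10 of 10 genes with a median log2 fold change of 0.17, led by Egr2 (0.37, SE 0.22), Arc (0.30, SE 0.21) and Egr1 (0.26, SE 0.14). Without dominant female 3 it was positive for 7 of 10 genes with a median of 0.094, and without submissive female 3 the median was 0.29. Forebrain excitatory neuron markers were likewise estimated higher for 10 of 10 genes (median 0.095) and striatal markers for 8 of 8 (median 0.059), while cerebellar markers were estimated lower for 9 of 10 (median -0.11), with 0 of these genes called, and their part in the averages was not tested. None of the 10 was called, against 0% of 15233 genes, and 0 had an unadjusted p under 0.05 against 2.51% of genes (383 by edgeR, 291 by DESeq2). With cage as a block, 6 of the 10 had an unadjusted p under 0.05 (Egr2, Arc, Egr1, Nr4a1, Dusp1 and Junb) against 4.04% of genes, and 0 of the 10 passed the adjusted threshold (adjusted p of at least 0.995 by edgeR). Comparing mates cage by cage, the dominant mouse had the higher value in 48 of 70 comparisons in males (68.6%) and 27 of 40 in females (67.5%), against 50.0% and 49.3% over all genes. These comparisons share mice and the genes move together, so they are not independent. By male cage, the number of genes higher in the dominant mouse was 6, 10, 6, 7, 9, 4 and 6 of 10 for cages 1 to 7. The difference of the rank effect between the sexes was not called for any of the 10 genes (0% of genes), and the estimates had both signs, from -0.47 (SE 0.44) for Egr2 to 0.51 (SE 0.30) for Fosb, with 0 of 10 at an unadjusted p under 0.05 against 3.32% of genes (505 by edgeR, 426 by DESeq2). With the block this count was 1, Egr2, against 6.90% of genes.

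**Figure D2:**
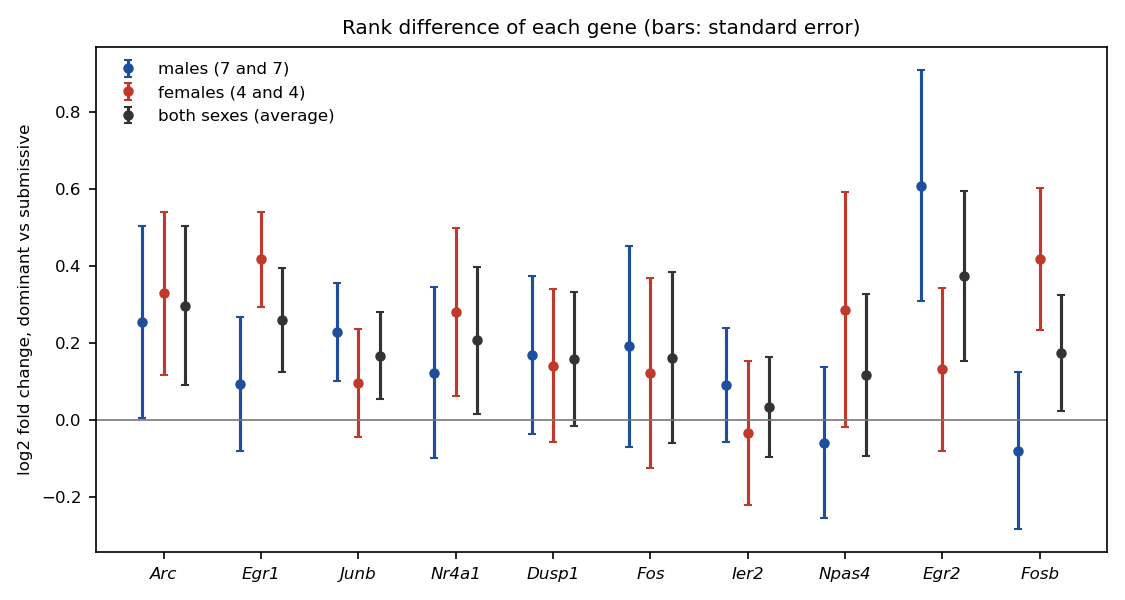
Log2 fold change of dominant against submissive mice (vertical axis) for each gene (horizontal axis), with the standard error as bar, in 7 and 7 males, 4 and 4 females and averaged over both sexes. Most estimates lie above 0, the averages for 10 of 10 genes, but the bars are wide and those that lie 2 or more standard errors above 0 are Egr1 and Fosb in females (0.42 each) and Egr2 in males (0.61).

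Cages were compared next. In males, 6 of the 10 genes differed between the 7 cages beyond the difference between mates (edgeR's F-test of the cage terms with rank in the model), against 5.89% of genes. Fos had an adjusted p of 0.000797, Nr4a1 of 0.000891, Arc of 0.00158, Egr2 of 0.00243, Dusp1 of 0.00515 and Egr1 of 0.0464 in edgeR. Junb (0.101), Npas4 (0.126), Ier2 (0.207) and Fosb (0.406) did not pass. The call of Egr1 was lost when any one of 9 mice was left out, which were dominant males 2, 3, 4, 6 and 7 and submissive males 2, 3, 4 and 7 (adjusted p up to 0.135 by edgeR). It was also lost with DESeq2 (adjusted p = 0.0990), where Junb was gained (0.0216), and with the trend with exon length removed (0.0613 by edgeR). Junb was gained without submissive male 1 or 2 and without dominant male 1 (adjusted p = 0.0277 by edgeR), when 7 of the 10 genes and 1778 genes in all were called.

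Fos measured 13.1, 22.6, 22.7, 17.1, 10.3, 10.1 and 8.55 CPM in dominant males of cages 1 to 7. In their submissive mates it measured 14.98, 16.5, 23.2, 12.1, 9.13, 7.94 and 7.41 CPM. Both series were highest in cages 2 and 3 and lowest in cages 5 to 7, and the mice of cages 1 to 4 did not overlap with those of cages 5 to 7 (mean 17.8 against 8.89 CPM, a ratio of 2.00). Nr4a1 (20.6 to 28.6 against 10.97 to 14.99 CPM) and Dusp1 (12.6 to 19.1 against 8.05 to 10.8 CPM) were likewise separate. These 3 of the 10 genes stand against 5.14% of all genes that lay higher in every mouse of cages 1 to 4, and 8.74% that were separate in either direction. For Arc (56.2 to 132.0 against 41.8 to 60.1 CPM) the ranges touched through submissive male 4. The split of the cages follows the replicate number, and no label gives it a meaning. Cage 3 had the highest cage mean for 8 of the 10 genes, with 22.9 CPM for Fos against 7.98 CPM in cage 7, 125.6 against 51.0 CPM for Arc and 5.78 CPM for Egr2 against 1.48 CPM in cage 6.

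In females, 4 of the 10 genes were called between the 4 cages, against 0.0740% of genes (11 of 14865). Arc (adjusted p = 0.000129 by edgeR), Dusp1 (0.000475) and Fos (0.000719) had the 3 smallest p-values of all genes, followed by Nr4a1 (0.00112). The next gene was Btg2, an antiproliferative immediate-early gene (adjusted p = 0.00112 by edgeR). Npas4 (0.0779), Junb (0.0821), Egr1 (0.246), Egr2 (0.565) and Ier2 (0.528) did not pass, and Fosb had an adjusted p of 0.999. With DESeq2, 3 of the 10 genes were called in females, against 5 of 14865 genes, since Nr4a1 had an adjusted p of 0.178. Dusp1 measured 10.9 and 9.77 CPM in the mates of cage 1, 12.96 and 14.1 CPM in cage 2, 23.8 and 21.2 CPM in cage 3 and 17.1 and 13.3 CPM in cage 4. Both mice of cage 3 lay above every other female. It had the highest cage mean for 10 of 10 genes, with 24.8 CPM for Fos against 11.1 CPM in cage 1 and 134.8 CPM for Arc against 64.7 CPM. Without dominant female 3 the cage difference of Fos had an adjusted p of 0.0702 while Arc, Nr4a1 and Dusp1 were still called and Npas4 was added. Without 1 of the mice of cage 2 or 4, or without submissive female 3, between 1 and 4 of the genes Egr1, Egr2, Junb and Npas4 were called in addition.

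With the rank means removed, the share of the sum of squares of log2 CPM that lay between cages was taken. It was a median of 84.0% for the 10 genes in males and 83.4% in females, against 62.5% and 49.9% over all genes. With 2 mice per cage, equal parts lie on average between and within cages even without a cage effect. The 49.9% over all genes in females and the 50.9% of Fosb there are near that level. Egr2 (96.1%), Fos (95.4%) and Nr4a1 (94.8%) were highest in males and Dusp1 (96.0%) in females. Fosb was nearest to the other genes with 60.0% and 50.9%. The genes were also more variable, with a median SD of log2 CPM of 0.44 in males and 0.46 in females against 0.13 and 0.09 over all genes. Mates of a cage were killed together and their libraries were numbered next to each other, so cage, time of killing and library order cannot be told apart.

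**Figure D3:**
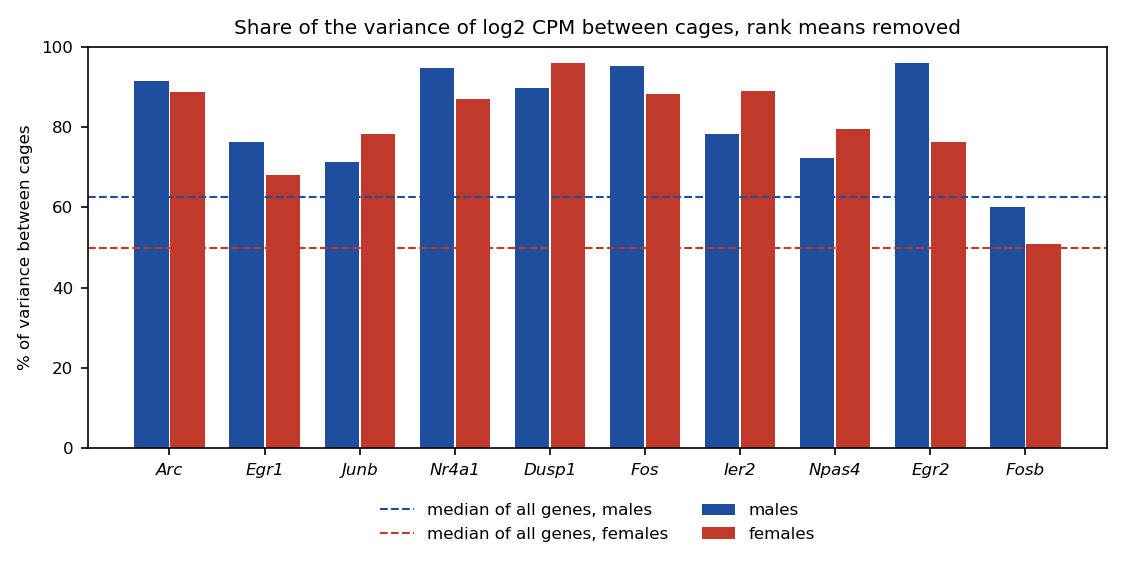
Percent of the variance (sum of squares) of log2 CPM that lay between cages (vertical axis, rank means removed) for each gene (horizontal axis) in 14 males and 8 females, with the median of all genes as dashed lines (62.5% in males, 49.9% in females). With 2 mice per cage, equal parts lie on average between and within cages even without a cage effect. Fosb is near these lines while Arc, Nr4a1, Dusp1 and Fos are at 87.1% or more in both sexes.

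Other genes of the pathway were taken from fixed lists, to be read against the 5.89% of all genes called between male cages, 0.0740% between female cages and 0.0942% for rank in females. Of 46 further immediate-early genes, 5 of 44 tested (11.4%) differed between male cages (Nr4a3, adjusted p = 0.00260, Trib1, Per1, Jund and Btg2), and 1 of 45 between female cages (Btg2). Of 20 later activity-induced genes, 1 (5%, a share near that of all genes) was called between male cages, Gpr3, a receptor (adjusted p = 0.0326 by edgeR), and 0 between female cages. Of 20 upstream signalling and transcription factors, 4 were called between male cages: the coactivators Crebbp and Ep300, the factor Mef2c and the calcium channel subunit Cacna1c. Among 12 genes induced by glucocorticoids, 0 were called in males and 1 in females, Plin4, a lipid droplet protein (adjusted p = 0.0338 by edgeR). For rank, 0 genes of these lists were called in males, and in females 1, the upstream SRF coactivator Mkl2 (log2 fold change 0.22, SE 0.04, adjusted p = 0.0495 by edgeR). This call and that of Tph2 were lost with the trend with exon length removed, without submissive female 1 and without submissive female 3, fits in which edgeR called 0 genes and 1122, 1426 and 1356 had an unadjusted p under 0.05. Mkl2 was also lost without submissive female 4, where 3 genes were called and 0 were higher in dominant females. Tph2 was also lost without dominant female 3, where 1 gene was called and 0 were lower. Of the upstream factors, 19 of 20 were estimated higher in dominant females, with a median log2 fold change of 0.09, against 49.1% of all genes. For rank in females, 9 of these 20 (45%) had an unadjusted p under 0.05 in edgeR, against 10.5% of all genes. In males 8 of 20 were estimated higher in dominant mice (median -0.013), against 48.6% of all genes. Of the genes induced by glucocorticoids, 1 of 12 was estimated higher in dominant females (median -0.072) and 7 of 12 in dominant males (median 0.0075). Between female cages, 7 of the 12 (58.3%) had an unadjusted p under 0.05 in edgeR against 5.11% of all genes.

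Summed marker levels are given by cage, without a test of the sums. Forebrain excitatory neuron markers summed to 1613, 1391, 1407, 1526, 1598, 1427 and 1581 CPM in male cages 1 to 7, and to 1361 to 1476 CPM in female cages with 1409 CPM in cage 3. Cerebellar neuron markers summed to 569, 981, 965, 770, 778, 980 and 839 CPM in male cages 1 to 7, the first including dominant male 1. In female cages 1 to 4 they summed to 1059, 942, 1151 and 925 CPM, the highest in cage 3, where the 10 immediate-early genes were also highest. Endothelial markers summed to 218 to 238 CPM in male cages 1 to 4 and to 243 to 247 CPM in cages 5 to 7, and microglial markers to 401 to 439 CPM and 439 to 457 CPM. The libraries of male cages 1 to 4 held 12403943 to 14379997 counted reads and those of cages 5 to 7 held 14166495 to 15805170. Choroid plexus markers ranged from 630 to 954 CPM in males and from 777 to 894 CPM in females. Blood markers summed to 3.21 to 7.32 CPM over all cages, with 4 of 5 markers at 0 in every library. No cerebellar, microglial, choroid plexus or blood marker was called between cages in either sex (edgeR), with 0, 2, 1 and 0 genes of these lists at an unadjusted p under 0.05 in males and 6, 0, 2 and 1 in females. At that level stood 22.3% of all genes in males and 5.11% in females, so that the 6 of 10 cerebellar markers in females (60.0%) lay above the share of all genes. In males the same was the case for 8 of 12 brain tissue markers (66.7%), 5 of 8 striatal markers (62.5%) and 3 of 6 thalamic and hindbrain markers (50.0%). Single markers called between male cages were Slc17a7, Rbfox3, Ppp1r1b, Rgs9, Tcf7l2, Tph2 and Cldn5, and between female cages Tph2, and the part of marker levels and depth in the cage differences was not tested.

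The 10 genes varied together across libraries. Over the 14 males, Pearson's r of log2 CPM was positive in 45 of 45 pairs of genes, with a median of 0.656 and a range from 0.194 to 0.942, and Spearman's rho had a median of 0.719. With 100000 permutations and adjustment over the 45 pairs, 32 pairs passed by r and 29 by rho. Fos and Arc were the closest pair (r = 0.942, rho = 0.903, permutation p = 1e-05, the smallest these permutations can give, and 2e-05, adjusted p = 0.00015 and 0.000525), and r was 0.909 without the 2 mice farthest from the median of Fos. Nr4a1 and Dusp1 had r = 0.937 and rho = 0.899. Fosb and Ier2 were the least alike (r = 0.194, rho = 0.134). Leaving out the 2 farthest mice, r ranged from 0.242 to 0.945 over the pairs. For comparison, r reached 0.5 in 34 of the 45 pairs and in 9.45% of all pairs of genes, whose median was -0.0015.

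Mates of a cage are not independent, so the relation was also taken apart. Over the means of the 7 cages the median r was 0.808 and 25 of 45 pairs passed by an exact permutation test. There r reached 0.5 in 41 of the 45 pairs and in 19.3% of all pairs of genes. Over the differences between the 7 pairs of mates, with cage removed, the median r was 0.271 with 32 of 45 pairs positive, and 0 passed, while r reached 0.5 in 19 pairs against 14.97% of all pairs of genes. Fos and Arc had r = 0.972 over cage means and r = 0.554 over differences (exact permutation p = 0.00119 and 0.204). Egr1 and Egr2 changed sign, with r = 0.905 over cage means and r = -0.74 over differences (exact permutation p = 0.00417 and 0.0526), whereas Fos and Egr2 had 0.901 and 0.812. Within the 8 males of cages 1 to 4 the median r was 0.667 with 5 pairs passing, and within the 6 males of cages 5 to 7 it was 0.261 with 0 passing. In these subsets r reached 0.5 in 30 and 11 of the 45 pairs, against 13.1% and 16.9% of all pairs of genes. At these sizes only strong relations can pass.

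In the 8 females, from 4 cages, the median r was 0.681 with a range from 0.074 to 0.969, again positive in 45 of 45 pairs. By exact permutation, 18 pairs passed by r and 10 by rho, though p-values take the 8 mice as independent. Fos and Arc again had the highest r (0.969, rho 0.833), followed by Junb and Dusp1 (0.955, rho 0.976). Npas4 and Nr4a1 had the lowest (0.074), while the same pair had r = 0.727 in males. The female relation rested on few mice: without the 2 mice farthest from the median, r ranged from -0.87 to 0.937 with 38 of 45 pairs positive, and 3 pairs passed without dominant female 3 and 7 without submissive female 3. Over all pairs of genes r reached 0.5 in 11.2%, and in 30 of the 45 pairs here.

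**Figure D4:**
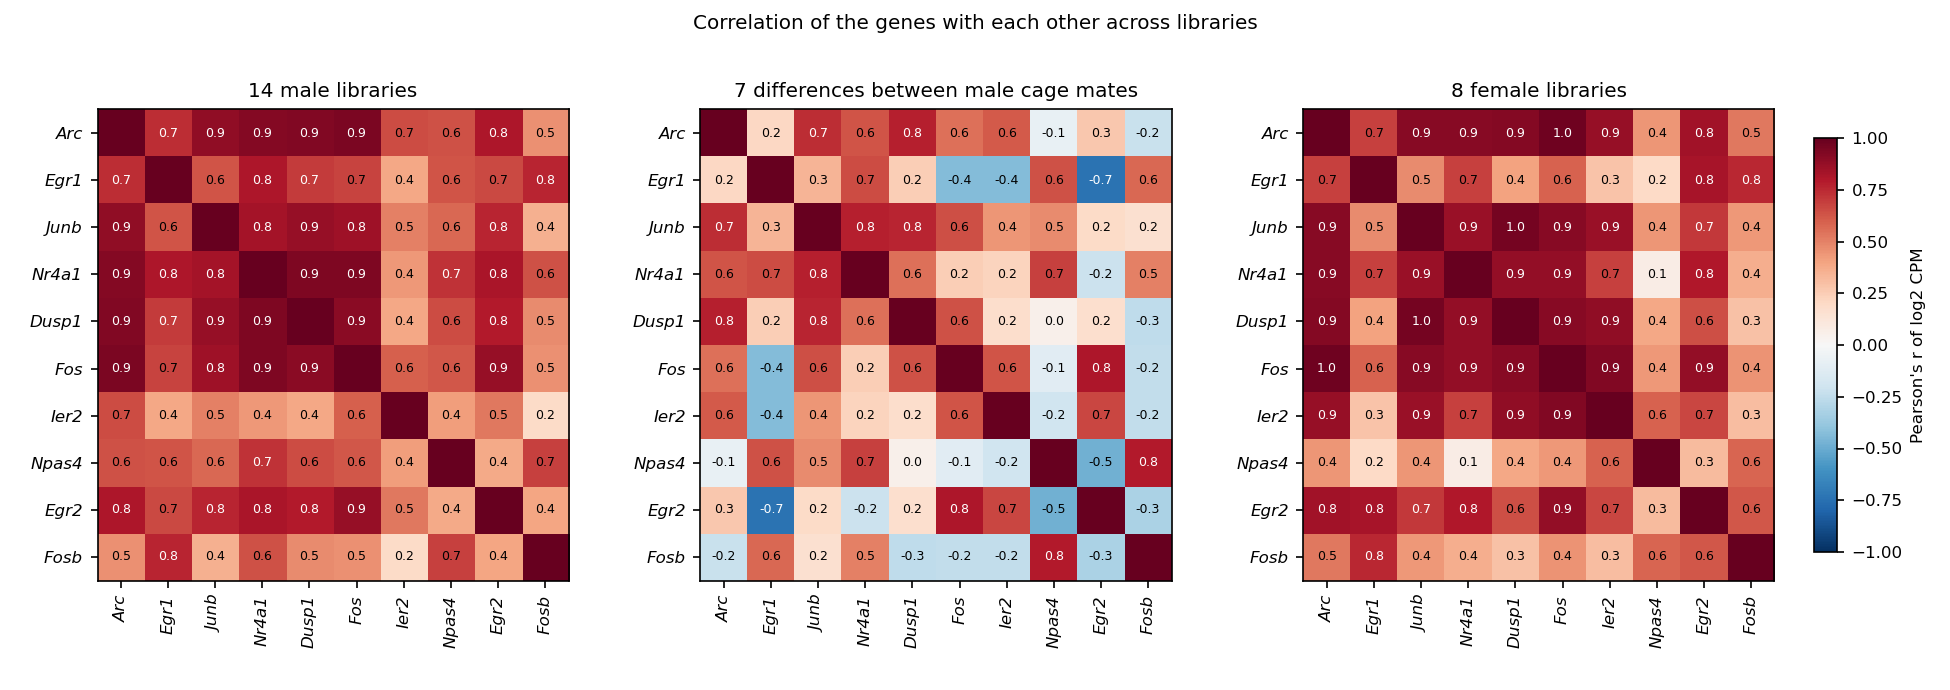
Pearson's r of log2 CPM (colour and printed value) for each pair of the 10 genes over 14 male libraries (left), over 7 differences between male cage mates (middle) and over 8 female libraries (right). Values are positive in 45 of 45 pairs at left and right and mixed in the middle, where 32 of 45 are positive.

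The genes outside the list that were most like it were ranked by the smaller of the r in males and the r in females with the mean standardised level of the 10 genes. Trib1, a pseudokinase and itself an immediate-early gene, came first (r = 0.841 in 14 males and 0.865 in 8 females). It was followed by Fam13b (0.831 and 0.832), Yeats2 (0.893 and 0.829), Ubn1 (0.828 and 0.932) and Arl5b (0.860 and 0.820). Sik1 (0.819 and 0.890), Zfyve26, Ep400, Chd1 and Nin completed the first 10, the last with 0.805 and 0.832. The 44 other immediate-early genes had a median of 0.238 on this measure, against -0.24 over 14659 genes, and 4 of them were among the first 100.

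Female and male libraries carry different name prefixes and were counted in separate tables, so sex, prefix and table cannot be told apart. Between them, 3 of the 10 genes were called, all higher in females, against 36.2% of 15233 genes called in either direction and 18.4% called higher in females. Fosb had a log2 fold change of 0.53 (SE 0.15, adjusted p = 0.00735 by edgeR), Npas4 of 0.57 (SE 0.21, adjusted p = 0.0349) and Ier2 of 0.37 (SE 0.13, adjusted p = 0.0272). Fosb measured 1.19 to 3.04 CPM in males, with medians of 1.86 in dominant and 2.22 in submissive mice, and 2.21 to 4.45 CPM in females. The ranges overlapped, as they did for Ier2 with 2.44 to 5.22 CPM in males and 3.34 to 6.94 CPM in females. The other 7 genes had estimates from -0.04 (Junb) to 0.32 (Egr2). Cerebellar neuron markers were estimated higher in females for 10 of 10 genes (median log2 fold change 0.31, 4 called). Brain tissue markers were higher for 10 of 12 (0.07, 5 called) and forebrain excitatory neuron markers for 7 of 10 (0.10, 5 called). Striatal and microglial markers were higher for 4 of 8 each, thalamic and hindbrain markers for 2 of 8 (-0.41, 1 called) and endothelial markers for 1 of 8. The part of these markers in the estimates was not tested. With the reads of cage mates summed, so that each cage counts once, Fosb was still called (adjusted p = 0.0145 by edgeR), while Npas4 (adjusted p = 0.0785) and Ier2 (0.0800) were not. This is 1 of the 10 genes, against 4523 of 15827 genes called in that fit.

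The size of this difference varied with the cages that entered. Against the 8 males of cages 1 to 4 only Fosb was called (log2 fold change 0.36, SE 0.14, adjusted p = 0.0355 by edgeR; 46.1% of genes), and the median estimate of the 10 genes was -0.08. Against the 6 males of cages 5 to 7, 9 of the 10 were called higher in females with a median of 0.74 and Junb as the exception (0.20, 27.4% of genes). Fos moved from -0.25 (SE 0.19) to 0.76 (SE 0.21) and Arc from -0.23 (SE 0.18) to 0.71 (SE 0.17). Both subsets were chosen after the cage values were known, and the mates of a cage entered as independent mice. The median estimate of the 10 genes was 0.23 with all mice, 0.10 without dominant female 3 and 0.083 without submissive female 3. Without dominant female 3, 1 of the 10 genes was called, Fosb, against 5088 of 15342 genes. Npas4 (0.36, adjusted p = 0.169 by edgeR) and Ier2 (0.23, adjusted p = 0.144) no longer passed. Ier2 was also lost without submissive female 2 or 3, and Npas4 when any one of 10 of the 22 mice was left out. With DESeq2, Npas4 was not called either (adjusted p = 0.0546). Of the other immediate-early genes, 16 of 45 were called, which at 35.6% is near the 36.2% of all genes, and 15 of these were higher in females, among them Jun (0.42, SE 0.05) and Ier5 (0.51, SE 0.06).

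**Figure D5:**
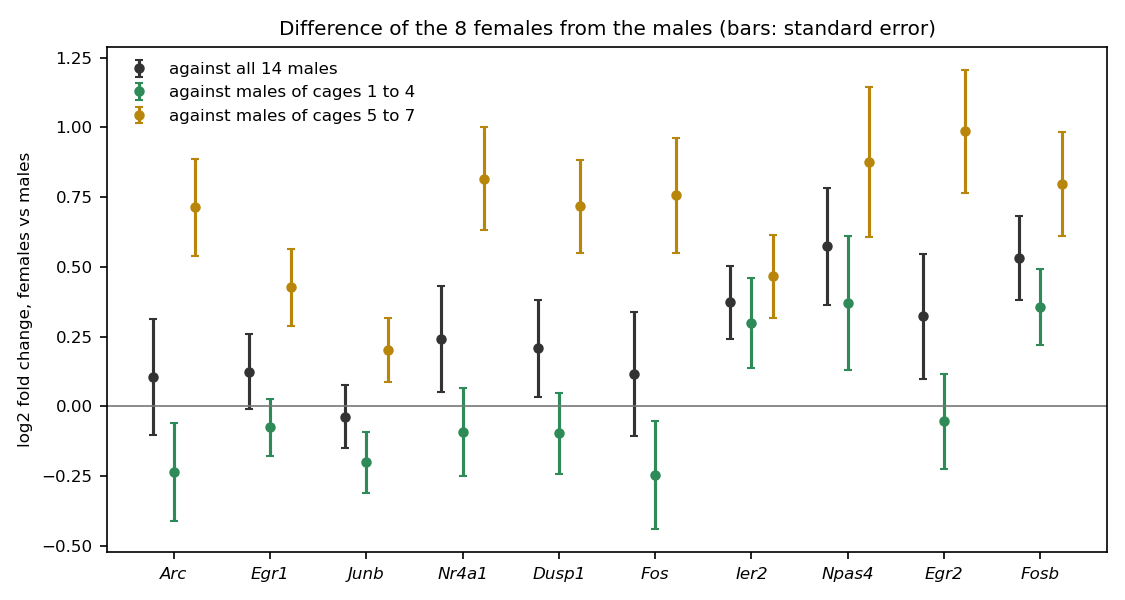
Log2 fold change of the 8 females against the males (vertical axis) for each gene (horizontal axis) with the standard error as bar, taking all 14 males, the 8 males of cages 1 to 4 or the 6 males of cages 5 to 7. Arc moves from -0.23 against cages 1 to 4 to 0.71 against cages 5 to 7, while Fosb lies above 0 against each set.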

How the data were processed

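Right hemisphere RNA of 22 mice was sequenced after rRNA depletion with a stranded kit. Reads trimmed by cutadapt 1.15 and bbduk were aligned by the authors with STAR 2.6.0a (genome mm10), and the raw gene counts deposited are those of featureCounts 1.6.2, with the strand setting not given in the sources used here. Groups came from the sample labels. The members and gene lists were chosen with earlier results of these data known.

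Counts were analysed in R 4.3.3 with edgeR 4.0.16 (limma 3.58.1): TMM factors, filterByExpr (minimum count 10, total 15), quasi-likelihood tests over all genes and Benjamini-Hochberg adjustment with a threshold of 0.05. Comparisons were rank within each sex, rank averaged over and compared between the sexes, female against male, and an F-test of cage with rank in the model. CPM were computed from the deposited counts, log2 CPM with a prior count of 2. Named genes were all members, genes of the lists that passed a test and the 10 genes most like the members. Correlations used permutation of samples. The main edgeR comparisons and the correlations were tested on simulated data, and the alternative fits were not. The counts simulated for rank held no difference between cages. Alternatives were DESeq2 1.42.0, its size factors, no filter, a removed trend with exon length, cage as a block, subsets of cages and leaving out each mouse. Library totals of 12403943 to 16488762 counts limit the precision of the genes with few reads.

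Mates share a cage number in the library names and were killed together, so replicate numbers pair the samples. Over all genes, deviations from the group means correlated at 0.177 on average between mates in males (other pairs -0.03) and at 0.0239 in females (other pairs -0.01). No 2 libraries of a group agreed within counting noise (mean chi-square per gene at least 1.81 over 54 pairs).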

Additional observations from a re-analysis of the deposited data

Results flagged for a closer look

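In 40 combinations of gene and group, 2 had a mouse set apart from the rest of its group by the gap to its nearest neighbour, where chance alone gives about 1 in 20. Arc measured 109.0 CPM in submissive female 3 and 62.0 to 69.5 CPM in the other submissive females. Ier2 measured 5.22 CPM in submissive male 3 and 2.44 to 3.56 CPM in the other submissive males. Each of these mice belonged to the cage with the highest mean of the gene in its sex, and its dominant mate measured 160.5 CPM for Arc and 4.15 CPM for Ier2.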

How the results depend on the processing

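With DESeq2, its size factors, no filter on low counts, the trend with exon length removed or cage as a block, 0 of the 10 genes were called for rank in males, averaged over the sexes or between the sexes, and in cage subsets, run within each sex, 0 were called in males. For rank in females 1 gene, Egr1, was called without the filter, with the replicate block and within cages 3 and 4. The block changed no other call of rank. All genes called for rank in females numbered 63 by DESeq2, 84 without the filter, 0 with the length trend removed, 36 with the replicate block, 8 with block and length trend, 5 within cages 1 and 2 and 120 within cages 3 and 4. For cage in males, the genes called were 962 of 14737 by DESeq2, 1196 of 20267 without the filter and 547 of 14737 with the length trend removed. For cage in females they were 5 of 14865 by DESeq2 and 99 of 19834 without the filter. The members called for cage in males were 5 by DESeq2 (Egr1 lost, Junb gained, Egr2 given no adjusted p), 7 without the filter and 5 with the length trend removed, and in females 3 by DESeq2 (Nr4a1 lost) and 9 without the filter. Between females and males, 2 members were called by DESeq2 (Npas4 lost), 1 member, Fosb, was called with mates summed or with males of cages 1 to 4, and 9 with males of cages 5 to 7. All genes called there numbered 5412 of 15233 by DESeq2 and 4523 of 15827 with mates summed. They were 6966 of 15107 with males of cages 1 to 4 and 4162 of 15189 with males of cages 5 to 7. Correlated pairs in males fell to 0 with the replicate block (differences between mates), 5 within cages 1 to 4 and 0 within cages 5 to 7. In females, differences between mates were not run, having 4 cages. Except where fewer mice enter, the cause was not tested.

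The following estimates changed sign. For rank in males they were Nr4a1 (-0.021) within cages 5 to 7 and Npas4 (0.047) and Fosb (0.13) within cages 1 to 4. For rank in females within cages 1 and 2 they were Egr2 (-0.12), Fos (-0.25), Arc (-0.015), Npas4 (-0.24) and Junb (-0.10), and within cages 3 and 4 Ier2 (0.15). For females against males of cages 1 to 4 they were Egr2 (-0.054), Fos (-0.25), Arc (-0.23), Nr4a1 (-0.091), Dusp1 (-0.10) and Egr1 (-0.075), and against cages 5 to 7 Junb (0.20).

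Leaving out each mouse in turn, the members called ranged from 0 to 1 for rank in females (1 without dominant female 2, Egr1), from 1 to 3 between females and males and from 4 to 8 for cage in females. All genes called ranged from 0 to 77 for rank in females, from 381 (without submissive male 3) to 2102 (without submissive male 1) for cage in males and from 7 (without submissive female 1) to 92 (without dominant female 2) for cage in females. Between females and males they ranged from 4917 to 5773. Correlated pairs ranged from 3 to 20 in females, the lowest without dominant female 3. Estimates that changed sign ranged, for rank in males, from -0.21 to 0.048 (Npas4) and -0.19 to 0.035 (Fosb). For rank in females they ranged from -0.087 to 0.32 (Egr2), -0.28 to 0.40 (Fos), -0.030 to 0.55 (Arc), -0.10 to 0.37 (Dusp1), -0.11 to 0.67 (Npas4), -0.30 to 0.089 (Ier2) and -0.070 to 0.21 (Junb). For the difference between the sexes they ranged from -0.47 to 0.22 (Fos), -0.28 to 0.31 (Arc), -0.032 to 0.46 (Nr4a1), -0.26 to 0.21 (Dusp1), -0.051 to 0.74 (Npas4) and -0.39 to 0.0062 (Ier2). For rank averaged over the sexes they ranged from -0.041 to 0.30 (Fos), -0.085 to 0.31 (Npas4) and -0.10 to 0.10 (Ier2). For females against males they ranged from -0.10 to 0.21 (Fos), -0.087 to 0.20 (Arc) and -0.13 to 0.011 (Junb).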
